A study of Mus musculus with 24 samples.

Results

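The 2 immortalized knockout lines compared here lacked different transcription factors of neighbouring networks: MycKO mouse embryonic fibroblasts (MEFs) lacked Myc and MlxKO MEFs lacked Mlx. The comparison asks which transcripts differ between cells that lost one factor and cells that lost the other. It used 6 of the 24 RNA-seq libraries of the series, 3 of immortalized MycKO and 3 of immortalized MlxKO, and every gene with at least 1 CPM (read counts scaled for library size) in at least 3 of the 12 libraries of the immortalized table, which left 12880 of 41710 genes. Values from the 3 WT and 3 DKO (Myc and Mlx both deleted) immortalized libraries are given beside some genes as a description.

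Both lines started from pooled MEFs of late-gestation embryos that carried floxed alleles of Myc or of Mlx and the ROSA26-CreER transgene, a Cre recombinase made in all tissues and activated by 4-hydroxytamoxifen (4OHT). The cells were transduced with a lentivirus that encodes SV40 T-antigen and blasticidin resistance, selected, and then exposed to 500 nM 4OHT to excise the floxed exons. CreER, T-antigen, blasticidin selection and 4OHT were therefore shared by both lines, while the cells labelled WT were kept without 4OHT. T-antigen binds and inactivates p53 and the retinoblastoma protein. The sources describe 1 pool of embryos per group, so genotype and founding pool cannot be told apart. The study made libraries from triplicate RNAs of each group but does not say for the immortalized lines that these came from separate cultures, and the p-values then measure the spread between these libraries, which may be technical. Its flow cytometry found most cells of the immortalized MycKO line to be tetraploid or nearly so, so the loss of Myc and this ploidy cannot be told apart in the libraries.

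Myc pairs with Max and binds E-boxes (CACGTG) in promoters, where it raises transcription of genes for ribosomes, nucleotides and other needs of growing cells. The proteins Mxd1 to Mxd4, Mnt and Mga pair with Max too and mostly repress. Mlx pairs with the glucose-sensing proteins MondoA (encoded by Mlxip) and ChREBP (Mlxipl), binds E-box-like elements and drives Txnip and Arrdc4, arrestin-like proteins that limit glucose uptake. Mlx can also pair with some Mxd proteins and Mnt, which joins the networks.

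The 6 libraries held 17944748 to 19851300 reads on genes, and 3 reads corresponded to 0.145 to 0.169 CPM. Log2 profiles correlated at 0.983 to 0.996 between MycKO libraries, 0.989 to 0.995 between MlxKO libraries and 0.929 to 0.942 between the lines. MycKO9 stood slightly apart from MycKO10 and MycKO11, with correlations of 0.983 and 0.985 where the others had 0.996. Among the WT libraries, WT4 correlated at 0.943 and 0.950 with WT2 and WT3, which correlated at 0.992 with each other. For this reason WT values are printed per library, in the order WT2, WT3 and WT4. Knockout values follow the order MycKO9, MycKO10, MycKO11, the order MlxKO5, MlxKO6, MlxKO7 and the order DKO14, DKO15, DKO13.

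Of the genes tested, 5105 differed between MycKO and MlxKO at an adjusted p under 0.05 (39.6%), 2609 higher in MycKO (20.3%) and 2496 lower (19.4%). A gene that passed this test is called higher or lower below, and each difference is a log2 fold change of CPM + 1, MycKO minus MlxKO. The fold change was at least 1 on this scale, up or down, for 1416 called genes (11.0%), of which 695 were higher and 721 lower. The libraries of the lines did not overlap for 6786 genes (52.7%; 26.3% higher and 26.4% lower). The even split depended on the scaling in the deposited values. With reads divided by each library's total the median gene moved by -0.15, and the called genes were then 31.2% higher, 1773 higher against 3909 lower, where they had been 51.1% higher.

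The genes deleted in each line were lower in that line. Myc (chromosome 15, 61857227 to 61862223 in GRCm39, plus strand) measured 17.2, 10.98 and 9.96 CPM in MycKO and 72.4, 82.8 and 79.5 in MlxKO, a difference of -2.57 (SE 0.18, adjusted p 2.2e-06). WT libraries held 48.1, 39.9 and 177 CPM and DKO libraries 5.77, 4.25 and 8.02, so Myc in WT4 was above every MlxKO library while in WT2 and WT3 it was below. Mlx (chromosome 11, 100978080 to 100983043) measured 27.8, 25.1 and 22.4 CPM in MycKO and 17.03, 12.4 and 12.1 in MlxKO, a difference of 0.82 (SE 0.15, adjusted p 0.00193). The difference at Mlx was smaller than that at Myc, and 51.9% of its exon bases are also covered by another annotated gene. The values count whole genes, so reads from exons outside the deleted part and reads from cells that kept the allele cannot be told apart.

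The remaining members of the extended Myc network differed widely. Both paralogs of Myc were called higher in MycKO. Mycl, which can pair with Max as Myc does, measured 14.8, 15.1 and 14.1 CPM in MycKO and 1.79, 2.1 and 1.17 in MlxKO (2.56, SE 0.16, adjusted p 1.16e-06), against 0.234, 0.388 and 2.5 in WT and 0.566, 0.718 and 0.569 in DKO. All 3 MycKO libraries lay above every other immortalized library for Mycl. Mycn was low throughout, at 2.1, 1.26 and 1.41 CPM in MycKO and 0.29, 0.15 and 0.306 in MlxKO (1.04). The partner Max was lower in MycKO, with 35.3, 35.4 and 38.7 against 54.1, 49.3 and 49.9 CPM (-0.48).

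Among the Max-binding antagonists, 4 of 6 were called lower in MycKO and none higher (Mxd3 and Mga were not called). Mxi1 measured 7.51, 7.63 and 7.37 CPM in MycKO and 28.8, 24.02 and 24.9 in MlxKO (-1.66), and Mxd4 46.4, 45.4 and 42.5 against 86.6, 100.5 and 85.2 CPM (-1.0). Both stood clear of any overlap between the lines. Mnt (-0.75) and Mxd1 (-0.75) were also lower, while Mga (-0.27, adjusted p 0.104) and Mxd3 (0.16, adjusted p 0.512) did not pass the test. Thus 8 of 10 members of this network were called, 2 higher and 6 lower, against 39.6% of all genes. The 10 include Myc itself, which is 1 of the 6 called lower. As the gene deleted in MycKO, its call was set by the design.

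Targets of Mlx showed the widest gaps in the Mlx network. Txnip measured 37.2, 41.4 and 38.4 CPM in MycKO and 4.4, 2.55 and 4.54 in MlxKO (3.08, SE 0.18, adjusted p 6.34e-07). In WT it measured 60.7, 74.3 and 33.8 CPM and in DKO 1.3, 1.49 and 0.682, so the MycKO libraries lay within the span of WT and the MlxKO libraries nearer DKO. Arrdc4, a second arrestin-like target, measured 7.72, 5.71 and 4.78 CPM in MycKO and 0.194, 0.35 and 0.051 in MlxKO (2.55, SE 0.19, adjusted p 3.72e-06). In MlxKO7 its value lay below that of 3 reads. Arrdc3, a member of the same family, went the other way, with 17.7, 17.7 and 19.2 CPM in MycKO and 52.2, 31.5 and 35.9 in MlxKO (-1.06). Mlxip (-0.24), Arrdc2 (-0.35) and Klf10 (0.04) did not pass the test, and Mlxipl and the pyruvate kinase gene Pklr were too low to be tested.

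Of 4 tested Mlx targets with a window, only 1, Arrdc4, held a CACGTG, and Txnip had no match. The window around the Arrdc4 start is shown because Arrdc4 and Txnip carry the clearest difference linked to Mlx targets. It is the RefSeq promoter window of GRCm38.p6 at chr7:68749189-68749488 on the minus strand, 250 bases before and 50 bases after the start, with the E-box in capitals 193 bases before the start. The build differs from that of the deposited values, which use gene names only.
Arrdc4: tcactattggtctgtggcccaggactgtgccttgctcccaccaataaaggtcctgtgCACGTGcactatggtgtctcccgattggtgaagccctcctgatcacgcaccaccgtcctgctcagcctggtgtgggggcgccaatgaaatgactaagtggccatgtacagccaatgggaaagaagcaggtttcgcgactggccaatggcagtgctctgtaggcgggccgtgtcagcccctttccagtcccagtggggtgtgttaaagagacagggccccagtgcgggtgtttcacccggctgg
The same 6 letters stand in 11.4% of the windows of called genes (11.0% of those called higher and 11.9% of those called lower), in 11.7% of the windows of all genes tested and in 7.15% of all windows of that length. The shares among genes called higher, called lower and tested lay within 1 percentage point of each other. The sites were searched on both strands, and 10070 of the genes tested had a window.

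The 10 genes with the highest log2 fold changes spanned 4.33 to 6.19. Kpna2, which encodes an importin that carries proteins into the nucleus, measured 305, 300.2 and 311 CPM in MycKO and 3.53, 3.75 and 2.45 in MlxKO. This value cannot be read alone, because 44.8% of the 50-base stretches of Kpna2 also occur in another annotated gene and Gm10184, a retrogene on chromosome 17 that GENCODE vM39 names Kpna2rt, shares 99% of its own, mostly with Kpna2. Gm10184, named after its values were seen, went the other way, with 6.44, 1.15 and 4.67 CPM in MycKO and 279.8, 234 and 257 in MlxKO (-5.84). The sum of both was 312, 301.3 and 316 CPM in MycKO against 283, 238 and 259.9 in MlxKO, a log2 difference of 0.25.

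The other genes of this group shared few stretches with another gene. Ptprz1, a receptor tyrosine phosphatase of neural and glial cells, measured 89.1, 123 and 119 CPM in MycKO and 0.919, 0.701 and 1.33 in MlxKO (5.81). Gpr149, an orphan receptor, measured 40.5, 46.6 and 50.9 against 0.0968, 0 and 0.306 CPM (5.38), and the forkhead gene Foxs1 25.4, 22.7 and 26.00 against 0.145, 0.15 and 0.459 (4.37). For both genes the highest WT or DKO library reached only 1.16 CPM, so the high level was found in the MycKO libraries alone among the 12. Pitx1, a homeobox gene of the hindlimb, measured 51.02, 49.3 and 48.7 CPM in MycKO and 0.532, 1.001 and 0.765 in MlxKO (4.85). Here WT (33.1, 33.8 and 7.91 CPM) and DKO (33.4, 31.9 and 37.8 CPM) lay well above MlxKO. Slc4a4, a bicarbonate transporter (4.7), Galnt18, a glycosyltransferase (4.67), and Mgll, which hydrolyses monoglycerides (4.67), completed the group with Myh11 and Acta1, described with the contractile genes.

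At the other end, Tfap2b, an AP-2 transcription factor, had no read in any MycKO library and 55.9, 46.1 and 46.2 CPM in MlxKO. This was at least 304-fold lower against a floor of 3 reads in each MycKO library. Its level in WT (51.1, 49.5 and 30.3 CPM) and DKO (54.9, 51.5 and 54.2 CPM) was like that in MlxKO. Wnt10a, a secreted Wnt ligand, also had no read in MycKO, against 22.4, 24.5 and 23.3 CPM in MlxKO, at least 144-fold lower. Unlike Tfap2b, Wnt10a was also at 0 in WT2, WT3 and the 3 DKO libraries, while WT4 held a level like that of MlxKO.

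Matrix and surface genes made up much of the rest of the lowest group. Hapln1, which links hyaluronan to proteoglycans, measured 0.716, 0.329 and 0.281 CPM in MycKO and 41.4, 39.7 and 40.98 in MlxKO (-4.87), and the hypertrophic cartilage collagen Col10a1 4.5, 5.22 and 4.95 against 137, 102 and 104 (-4.28). Cd34, a surface sialomucin of progenitor and stromal cells, measured 2.56, 3.95 and 2.81 CPM in MycKO and 66.3, 70.1 and 75.2 in MlxKO (-4.14). WT (1.29, 2.996 and 1.03 CPM) and DKO (2.94, 3.98 and 2.05 CPM) were as low as MycKO, so Cd34 was high in MlxKO alone. Trabd2b, a Wnt-degrading metalloprotease (-5.01), the protocadherin Pcdh17 (-4.44), the pentraxin Nptx1 (-4.3) and the chemokine Cxcl15 (-4.26) were lower too, and Oas3 is described with the interferon genes.

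Genes with the largest differences in absolute CPM were dominated by matrix and cytoskeletal transcripts. Acta2, Fbln2, Ccn2, Thbs1 and Actb had the largest positive differences. Actb, cytoplasmic beta-actin, measured 6029, 5779 and 5849 CPM in MycKO and 3290.2, 3549 and 3857 in MlxKO (0.73). The largest negative differences included those of mt-Co1 (-0.62), the collagen gene Col3a1 (-1.64), the desaturase Scd2 (-0.94) and mt-Co2 (-0.68). Of these, mt-Co1 and mt-Co2, which encode subunits of cytochrome c oxidase, share 51.1% and 100% of their 50-base stretches with other annotated genes and are uncertain.

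Smooth muscle contractile genes were higher in MycKO as a group. Of 13 tested, 12 were called higher and none lower, with a median of 1.33, beside 20.3% called higher and a median of 0.00 over all genes. Only Smtn (0.22) was not called. The count was 10 with the 12 libraries in the fit, 13 without MycKO9 and 11 with library totals, and none was called lower in these fits. In bulk libraries, more cells of a kind and more RNA per cell cannot be told apart.

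Acta2, smooth muscle alpha-actin and the usual marker of myofibroblasts, measured 5811, 5862 and 6228 CPM in MycKO and 1736, 1676 and 1682 in MlxKO (1.81, SE 0.12, adjusted p 1.86e-06). Myh11, the smooth muscle myosin heavy chain, measured 46.1, 64.6 and 63.5 CPM against 0.532, 0.651 and 0.306 (5.29), and Actg2, enteric smooth muscle gamma-actin, 394, 344 and 372 against 16.5, 21.5 and 16.2 (4.29). The DKO libraries lay between, at 3809, 4065 and 3769 CPM for Acta2 and 8.31, 6.07 and 9.55 for Myh11. Lmod1, which nucleates actin filaments, measured 86.4, 113 and 109.7 CPM in MycKO and 22.01, 25.4 and 26.5 in MlxKO (2.02). The actin-binding Tagln (1.71), the myosin light chain Myl9 (1.7), the calponins Cnn2 (1.33) and Cnn1 (1.07), caldesmon Cald1 (1.0), the tropomyosins Tpm2 (0.91) and Tpm1 (0.45) and the kinase Mylk (0.63) completed the list. Acta1, skeletal alpha-actin, measured 191, 226 and 231 CPM in MycKO and 9.63, 10.4 and 9.29 in MlxKO (4.33). It was the only 1 of 8 skeletal muscle markers that could be tested, and 4 of the 8 had no read in the 6 libraries.

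The CArG box, the element bound by serum response factor, was found in the windows of Cnn2 and Myl9, 2 of 10 contractile genes with a window. It stood in 3.17% of windows of genes called higher, 1.51% of those called lower, 1.58% of those tested and 1.63% of all windows. This motif and the interferon element below were added after the values were seen.

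Genes that respond to the transcriptional coactivator YAP, which is active in spread and mechanically loaded cells, were mostly higher in MycKO: 7 of 10 were called higher and Nt5e lower. Over all genes 20.3% were called higher and 19.4% lower. Ankrd1, a nuclear ankyrin repeat protein, measured 56.3, 63.5 and 68.7 CPM in MycKO and 2.52, 4.1 and 3.57 in MlxKO (3.87). Ccn2, the connective tissue growth factor, measured 3884, 4306 and 4462 CPM against 649.8, 787 and 820.3 (2.49). Tissue factor F3 (1.7), the receptor kinase Axl (1.17), Ccn1 (0.79), Lats2 (0.77) and Crim1 (0.49) were also called higher. The 5′-nucleotidase gene Nt5e was lower (-1.35), and Ajuba (0.17) and Amotl2 (0.31) did not pass the test. Of 11 cadherin and junction genes, 6 were called higher, among them the mesenchymal cadherins Cdh11 (1.74) and Cdh2 (0.91), and the adhesion molecule Cadm1 was called lower (-2.84).

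**Figure D1:**
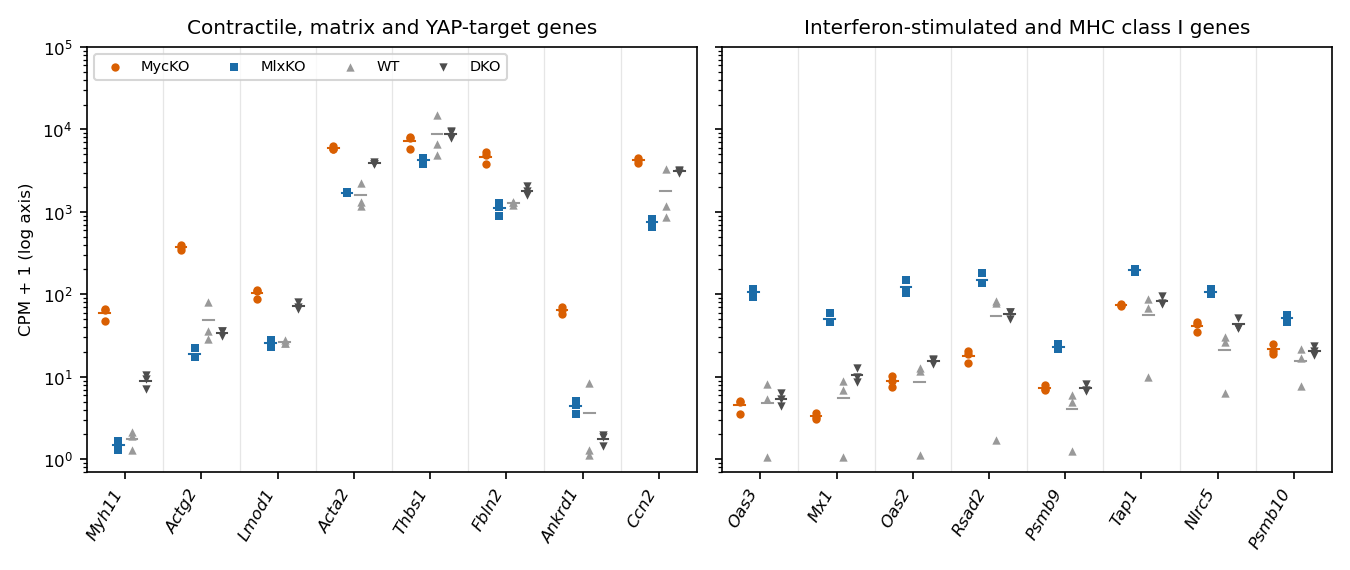
CPM + 1 on a log axis in the 12 immortalized libraries, for 8 contractile, matrix and YAP-responsive genes (left) and 8 interferon and MHC class I genes (right), each point a library and each short line the mean of 3. The MycKO points lie above the MlxKO points for the left genes and below them for the right genes, and WT4 is the lowest WT point for all 8 right genes.

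Matrix genes moved in both directions. Of 31 non-collagen matrix genes, 16 were called higher in MycKO and 8 lower (median 0.5), beside 20.3% and 19.4% of all genes. Fibulin-2 (Fbln2) measured 3763, 5274 and 4922 CPM in MycKO and 895, 1270.0 and 1161 in MlxKO (2.07), and thrombospondin-1 (Thbs1) 5754, 8137 and 7909.8 against 3799, 4445 and 4543 (0.76). Tenascin-N (Tnn) was higher by 3.19, and tenascin-C (1.49), thrombospondin-2 (1.66) and the collagen crosslinker Lox (1.07) were also higher. Elastin (Eln) measured 1.02, 0.934 and 0.844 CPM in MycKO and 21.3, 26.5 and 26.6 in MlxKO (-3.73). Elastic fibre and small leucine-rich proteoglycan genes made up most of the lower group, with fibrillin-2 (-2.98), osteoglycin (-3.28), lumican (-2.12) and asporin (-2.0), together with thrombospondin-4 (Thbs4, -3.31).

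Of 28 collagen chains tested among 44, 10 were called higher and 5 lower (15 and 5 without MycKO9, 6 higher without MlxKO5, 8 and 8 with library totals). Over all genes 20.3% were called higher and 19.4% lower, and the share of collagens called lower was near the latter. Col15a1 (2.64), Col8a1 (1.79) and the 3 main chains of collagen VI, Col6a1, Col6a2 and Col6a3 (0.53 to 1.13), were higher. Col3a1, the main chain of fibrillar collagen III, measured 575, 819 and 766 CPM in MycKO and 2121, 2318 and 2247 in MlxKO (-1.64). Col4a1 (0.87) and Col4a2 (0.69), which form the common basement membrane collagen, were higher while Col4a6 (-2.53) was lower.

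Among 27 matrix proteases and their inhibitors, 8 were called higher and 9 lower (5 higher with the 12 libraries in the fit, 7 and 12 with library totals). The shares over all genes were 20.3% higher and 19.4% lower. The protease inhibitor Serpine2 measured 15.8, 20.4 and 15.3 CPM in MycKO and 349, 251 and 263 in MlxKO (-3.99), a gap without overlap. The collagenase Mmp13 (1.47) and the inhibitor Timp1 (0.76) were higher, and the gelatinase Mmp2 (-1.22) and stromelysin Mmp3 (-1.82) lower. Of 14 ADAMTS proteases, 3 were called higher and 6 lower, Adamts3 (-2.47) and Adamts16 (-2.1) the furthest.

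The insulin-like growth factor (IGF) axis was higher in MycKO at 8 of 10 genes and lower at 2 (median 1.28; 7 higher and 0 lower with the 12 libraries in the fit). Over all genes 20.3% were called higher and 19.4% lower, the latter near the share of this list. Both ligands were higher, Igf2 by 1.82 and Igf1 by 0.95, as was the receptor Igf1r (0.5). Among the binding proteins that hold the ligands outside the cell, Igfbp6 measured 25.3, 16.8 and 17.6 CPM in MycKO and 1.6, 2.15 and 1.94 in MlxKO (2.83), and Igfbp7 (1.94), Igfbp5 (1.89), Igfbp3 (1.61) and Igfbp4 (0.79) were also higher. Igfbp2 (-1.05) and Igf2r, which clears IGF2 (-0.49), were lower.

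TGF-beta and BMP genes split evenly, with 6 of 14 called higher and 5 lower, beside 20.3% and 19.4% of all genes. The BMP antagonist Grem1 (1.66) and the activin subunit Inhba (1.78) were higher, together with Tgfb1 (0.86) and Tgfb3 (0.9). The ligands Gdf6 (-2.3), Bmp2 (-1.73), Bmp4 (-0.95) and Bmp6 (-0.75) were lower. Among 21 genes of the Wnt, FGF, HGF, VEGF and PDGF families and other secreted factors, 8 were called higher and 6 lower (2 lower with the 12 libraries in the fit). The Wnt antagonist Sfrp1 measured 28.9, 36.2 and 30.2 CPM in MycKO and 6.63, 4.1 and 4.34 in MlxKO (2.46). Wnt5a (1.57) and Fgf2 (1.5) were higher, and Vegfd (-1.62), the PDGF receptor Pdgfra (-1.07) and Dkk2 (-1.05) lower.

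Interferon-stimulated genes were lower in MycKO almost throughout. Of 35 tested, 32 were called lower and none higher, with a median of -1.05, beside 19.4% of all genes called lower. With the 12 libraries in the fit only 9 were called lower, again none higher. In that fit the spread includes the WT libraries, in which WT4 was far below WT2 and WT3 for these genes. Stat2 (-0.34), Irf9 (-0.11) and Ifi27 (0.39) were not called.

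The furthest were antiviral effectors. Oas3, which makes the oligoadenylates that switch on RNase L, measured 2.5, 4.12 and 3.94 CPM in MycKO and 114, 106 and 92.9 in MlxKO (-4.56, SE 0.16, adjusted p 3.38e-08). WT held 7.09, 4.38 and 0.0609 CPM and DKO 4.3, 3.37 and 5.4, so the high level was that of MlxKO. Mx1, a dynamin-like GTPase that blocks viral replication, measured 2.66, 2.03 and 2.25 CPM in MycKO and 58.2, 45.7 and 44.9 in MlxKO (-3.93). Rsad2 (viperin) measured 13.7, 19.3 and 17.9 against 179, 136 and 136 CPM (-3.07), with 82.6, 76.8 and 0.73 in WT and 60.01, 59.8 and 49.9 in DKO. Here too every MlxKO library lay above every other immortalized library. Oas2 (-3.78), the chemokine Cxcl10 (-2.65), Oasl1 (-2.25) and Ifit2 (-1.96) were next, and the transcription factors Irf7 (-0.87) and Irf1 (-0.61) were lower by less.

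The windows of Oas3, Rsad2 and Cxcl10 are printed because each holds GAAANNGAAA (N, any base), a core of the interferon-stimulated response element, shown in capitals and searched on both strands. They are from RefSeq on GRCm38.p6, all on the minus strand, at chr5:120777610-120777909, chr12:26456403-26456702 and chr5:92348840-92349139, 250 bases before to 50 after the start.
Oas3: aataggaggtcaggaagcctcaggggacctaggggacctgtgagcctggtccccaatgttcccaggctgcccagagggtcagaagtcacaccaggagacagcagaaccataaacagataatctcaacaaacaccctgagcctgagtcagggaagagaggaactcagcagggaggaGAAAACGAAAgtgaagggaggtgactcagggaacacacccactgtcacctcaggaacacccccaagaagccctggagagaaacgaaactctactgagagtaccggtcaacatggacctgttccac
Rsad2: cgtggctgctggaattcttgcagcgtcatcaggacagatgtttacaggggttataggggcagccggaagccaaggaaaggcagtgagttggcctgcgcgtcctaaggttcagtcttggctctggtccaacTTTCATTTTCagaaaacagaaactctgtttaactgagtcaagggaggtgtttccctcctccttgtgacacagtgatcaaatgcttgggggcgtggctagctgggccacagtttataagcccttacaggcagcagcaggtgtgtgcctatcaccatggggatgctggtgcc
Cxcl10: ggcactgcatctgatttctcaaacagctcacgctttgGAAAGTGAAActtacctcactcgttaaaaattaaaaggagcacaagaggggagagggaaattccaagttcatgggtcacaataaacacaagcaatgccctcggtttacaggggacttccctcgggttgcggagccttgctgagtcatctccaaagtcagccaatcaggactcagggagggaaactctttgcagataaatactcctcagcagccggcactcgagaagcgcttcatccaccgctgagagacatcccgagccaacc
The match lies on the strand opposite to the gene in Rsad2. It begins 75 bases before the start in Oas3, 120 in Rsad2 and 213 in Cxcl10. The element was present in 15 of the 25 interferon-stimulated genes with a window (60%), in 5.77% of windows of genes called lower, 3.32% of those called higher, 3.76% of those tested and 3.44% of all windows.

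MHC class I presentation genes, many of them interferon targets as well, were lower at 10 of 12 and higher at none (median -0.84; 4 lower with the 12 libraries in the fit). The share called lower over all genes was 19.4%. The immunoproteasome subunit Psmb9 measured 6.9, 5.93 and 6.19 CPM in MycKO and 20.7, 23.8 and 21.1 in MlxKO (-1.64), and the peptide transporter Tap1 71.7, 75.7 and 72.6 against 187, 202 and 195 (-1.4). Nlrc5, the transactivator of these genes (-1.37), Psmb10 (-1.29) and the heavy chain H2-K1 (-0.86) were lower, and H2-D1 by less (-0.33). The summed level of the list was 4032 to 4399 CPM in MycKO and 4977 to 5786 in MlxKO. It was 837 to 2067 CPM in WT and 3518 to 3720 in DKO, so the MycKO sums also lay above those of every WT library.

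Complement genes were lower at 8 of 12 and higher at 3, beside 19.4% and 20.3% of all genes. C4b, a component of the classical pathway, measured 0.204, 0.384 and 0.281 CPM in MycKO and 26.3, 14.5 and 12.5 in MlxKO (-3.79), although 28.6% of its 50-base stretches occur in its neighbour C4a as well. The proteases C1s1 (-2.13) and C1ra (-1.76) of the first component were lower too. Serping1, which inhibits those proteases, measured 21.9, 27.1 and 28.98 CPM in MycKO and 8.76, 3.05 and 4.95 in MlxKO (2.12). Of 17 chemokines and cytokines, 4 were called higher, a share near the 20.3% of all genes, and 6 lower, beside 19.4% of all genes. Csf1, the macrophage growth factor (1.08), and Ccl7 (0.94) were higher, and Tslp (-2.18), Cx3cl1 (-1.69), Cxcl1 (-1.61) and Lif (-1.46) lower.

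Macrophages express interferon and complement genes as well, and their markers were low in these lines. Only 2 of 14 could be tested, 5 of 14 had no read in the 6 libraries, and the summed level of the list was 5.8 to 7.3 CPM in MycKO and 10.3 to 12.4 in MlxKO, led by Cd68 (-1.4) and Cd14 (-0.32, not called). The part of such cells in the interferon and complement differences was not tested.

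**Figure D2:**
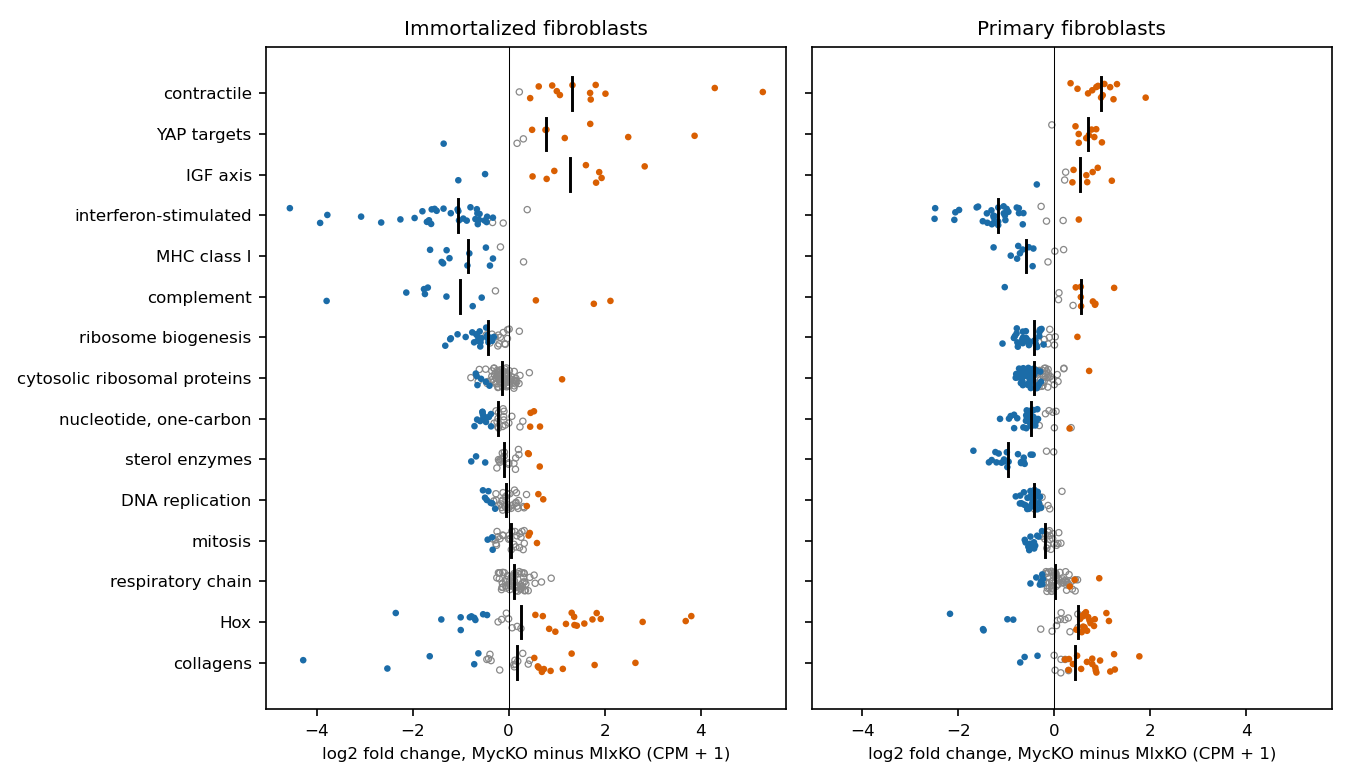
Log2 fold change, MycKO minus MlxKO, of each tested member of 15 gene lists in the immortalized (left) and primary (right) tables. Filled points passed the test (adjusted p under 0.05; orange higher, blue lower), open points did not, and the black bar is the list's median, which is 1.33 for the contractile list and -1.05 for the interferon-stimulated list on the left.

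Genes for making ribosomes were lower in MycKO at the level of assembly factors but, in this fit, mostly not at the level of ribosomal proteins. Of 37 ribosome biogenesis genes, 22 were called lower and none higher (median -0.42; 14 lower with the 12 libraries in the fit, 26 without MycKO9, 28 with library totals). The share called lower over all genes was 19.4%. RNA polymerase I genes were lower at 5 of 9 (2 with the 12 libraries in the fit, 3 without MlxKO6, MlxKO7 or MycKO11). Nucleolar processing genes were lower at 17 of 28 (12 with the 12 libraries in the fit or without MlxKO7, 22 with library totals). Dkc1, the pseudouridine synthase of ribosomal RNA and telomerase, measured 25.8, 24.3 and 28.5 CPM in MycKO and 69.7, 60.4 and 70.7 in MlxKO (-1.32). Polr1a, the largest subunit of polymerase I, measured 38.7, 51.3 and 46.5 against 106, 109 and 105 CPM (-1.22). Ppan (-1.2), Nolc1 (-1.06), nucleolin (Ncl, -0.57) and fibrillarin (Fbl, -0.45) were also lower, and nucleophosmin (Npm1) had -0.39 (adjusted p 0.0526).

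Windows of 8 of 31 ribosome biogenesis genes held CACGTG (25.8%), against 11.7% of all genes tested. They belonged to Cd3eap, Rrn3, Nop2, Pes1, Utp20, Wdr43, Mybbp1a and Ltv1, of which Mybbp1a (-0.76), Wdr43 (-0.59), Nop2 (-0.47) and Pes1 (-0.31, adjusted p 0.0334) had the lowest values. The genes of this list with the largest differences, Dkc1, Polr1a, Ppan and Nolc1, were not among those with the element. Whether the element goes with the difference was not tested. The windows of Mybbp1a (a nucleolar binding partner of Myb proteins; chr11:72441077-72441376, plus strand) and Wdr43 (a processing factor of the small subunit; chr17:71615965-71616264, plus strand), from RefSeq on GRCm38.p6, are shown with the E-box in capitals, which lies after the start in both.
Mybbp1a: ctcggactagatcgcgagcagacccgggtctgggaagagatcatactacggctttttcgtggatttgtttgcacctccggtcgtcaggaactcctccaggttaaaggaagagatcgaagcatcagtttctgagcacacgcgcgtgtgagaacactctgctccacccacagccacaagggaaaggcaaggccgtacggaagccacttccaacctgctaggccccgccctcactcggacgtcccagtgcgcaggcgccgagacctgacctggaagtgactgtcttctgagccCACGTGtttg
Wdr43: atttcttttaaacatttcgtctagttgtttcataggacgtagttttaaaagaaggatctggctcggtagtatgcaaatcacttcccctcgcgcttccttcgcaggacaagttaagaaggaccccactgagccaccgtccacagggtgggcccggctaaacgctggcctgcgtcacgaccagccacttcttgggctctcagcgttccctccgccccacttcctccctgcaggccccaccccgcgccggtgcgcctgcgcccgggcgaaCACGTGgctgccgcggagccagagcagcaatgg

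Of 82 cytosolic ribosomal proteins, 6 were called lower and 1 higher (median -0.14), beside 19.4% and 20.3% of all genes. This count rested on MycKO9: without that library 72 were called lower and 1 higher, with a median of -0.45, while library totals gave 16 lower. Without MycKO10, MycKO11, MlxKO6 or MlxKO7 the count was 3 lower. Rplp0 (-0.68) and Rpsa (-0.67) were lower, each with part of its sequence repeated in other annotated genes (20.2% and 15.3% of 50-base stretches), and Rpl39l, a paralog best known from the testis, was higher (1.11). Mitochondrial ribosomal proteins were called at 4 of 78, 3 higher and 1 lower (2 and 11 without MycKO9, 7 lower and none higher with library totals), and their median was 0.03. Aminoacyl-tRNA synthetases were lower at 9 of 20, Vars (-0.69) and Kars (-0.67) the furthest, and higher at 2 (12 and none with library totals). The lower count was 5 without MlxKO6 or MycKO11 and 4 without MlxKO7.

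Nucleotide and one-carbon synthesis genes were lower at 12 of 33 (21 with library totals) and higher at 4, beside 19.4% and 20.3% of all genes. Cad, which carries out the first steps of pyrimidine synthesis, measured 76.99, 113 and 105 CPM in MycKO and 129, 194 and 162 in MlxKO (-0.71). The serine hydroxymethyltransferases Shmt1 (-0.66) and Shmt2 (-0.55) and the purine enzymes Gart (-0.55) and Impdh2 (-0.53) were lower. Of 10 polyamine genes, Smox (-0.99), Oaz2 (-0.8) and spermidine synthase Srm (-0.54) were lower and Azin1 (0.57) higher.

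Glycolysis and lactate genes were called higher at 6 of 21 and lower at 5, beside 20.3% and 19.4% of all genes. Library totals turned the list's count to 2 and 7. It was 3 higher without MycKO11 and 3 lower without MlxKO6 or MlxKO7. The lactate exporter Slc16a3 measured 34.2, 34.1 and 35.9 CPM in MycKO and 11.1, 19.6 and 16.8 in MlxKO (1.12), whereas Slc16a1, the other main lactate transporter, measured 28.9, 25.4 and 27.3 against 81.8, 70.1 and 72.8 (-1.43). Pfkm (-1.13) and Aldoc (-1.01) were lower and Gapdh (0.44) higher. Of 61 genes of the respiratory chain and ATP synthase, limma called none, with 3 higher and 0 lower at an unadjusted p under 0.05, and edgeR called 2 higher (without MycKO9 limma called 1 higher and 8 lower). Genes of the mitochondrial chromosome were lower at 5 of 15 tested, with a median of -0.46, beside 19.4% of all genes called lower. Over single MycKO libraries against the MlxKO mean this median ran from -0.72 to -0.33. The 15 include genes such as mt-Co1 and mt-Co2, uncertain because their sequence is shared with other annotated genes.

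Sterol synthesis enzymes were called higher at 3 of 22 and lower at 3, which became 1 and 8 with library totals. Without MlxKO6, MlxKO7 or MycKO11, 1 was called lower. The 6 called of 22 were a share below the 39.6% of all genes. Dhcr7, a late enzyme of cholesterol synthesis, was lower (-0.78), and Msmo1 (0.65) was higher. Antioxidant genes driven by NRF2 were higher at 9 of 21 and lower at 3 (7 and 5 with library totals), beside 20.3% and 19.4% of all genes. The glutathione transferases Mgst1 (1.8) and Gsta4 (1.54) and the quinone reductase Nqo1 (0.85) were higher, while the cystine transporter Slc7a11 measured 4.14, 5.16 and 5.52 CPM in MycKO and 21.6, 17.3 and 15.9 in MlxKO (-1.69). Of 16 genes of the ATF4 amino acid response, 5 were called higher, with Vldlr the furthest (1.39), and 6 lower, among them Atf3 (-1.09) and Cth (-0.93), but 2 and 7 with library totals and 3 higher without MlxKO6 or MlxKO7. Lysosomal genes were higher at 10 of 24 and lower at 4, but 4 and 8 with library totals and 6 higher without MlxKO6 or MlxKO7. Their share called lower was near the 19.4% of all genes. Hexa, which encodes a hexosaminidase subunit, was higher (0.95), and the transcription factor Mitf (-1.73) was lower.

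Genes of DNA replication and mitosis differed little between the lines. Of 41 replication genes, 3 were called higher and 7 lower (2 and 15 with library totals), with a median of -0.05. The lower count was 11 without MycKO9, 3 without MlxKO6 and 4 without MlxKO7, MycKO10 or MycKO11. The helicase subunit Mcm7 (-0.54) and the clamp loader subunit Rfc1 (-0.49) were lower, and the origin recognition subunits Orc4 (0.72) and Orc2 (0.62) higher. Of 31 mitosis genes, 3 were higher and 3 lower (1 and 11 with library totals, 8 and 6 without MycKO9), with Spc25 (0.59) and Bub1 (0.44) higher and Cenpa (-0.44) lower. The lower calls were lost without MlxKO6, MlxKO7 or MycKO11. Both lists had a called share below the 39.6% of all genes.

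Among G1 regulators, 6 of 18 were called higher and 2 lower (4 and 5 with library totals). The 8 called of 18 were a share near the 39.6% of all genes. The cyclins Ccnd1 (0.53), Ccnd2 (0.58) and Ccne2 (0.59) and the pocket proteins Rb1 (0.71) and Rbl1 (0.32) were higher, as was the inhibitor Cdkn2d (0.71), while the inhibitors Cdkn2c (-0.89) and Cdkn1c (-0.67) were lower. Of 20 p53 genes, in cells whose p53 is bound by T-antigen, 3 were higher, Perp (0.88), Ccng1 (0.79) and Phlda3 (0.68), and 5 lower, among them the pro-apoptotic Bbc3 (-1.06) and Trp53 itself (-0.67). The 8 called of 20 were a share near the 39.6% of all genes, and without MycKO9, 5 p53 genes were called higher. Of 61 DNA repair genes, 6 were called higher and 12 lower (3 and 24 with library totals). The 18 called of 61 were a share below the 39.6% of all genes, and the share called lower was near the 19.4% of all genes. The damage kinase gene Atm (-0.72), the damage sensor Ddb2 (-0.86) and the end-joining genes Xrcc6 (-0.62) and Xrcc5 (-0.53) were lower, and Ercc1 (0.7) and Palb2 (0.56) higher.

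Hox genes, which keep a record of the body position a fibroblast came from, differed strongly. Of 33 tested, 16 were called higher in MycKO and 10 lower, beside 20.3% and 19.4% of all genes. Hoxc6 measured 26.6, 22.9 and 25.3 CPM in MycKO and 0.871, 0.601 and 1.12 in MlxKO (3.8), and Hoxc8 16.7, 17.6 and 17.3 against 0.484, 0.3 and 0.459 (3.69). Every Hoxb gene tested was called higher, 1.19 to 1.92, except Hoxb5 (0.26, adjusted p 0.286). The genes called lower came from paralog groups towards the end of the clusters, such as Hoxc12 (-2.35), Hoxd10 (-1.4), Hoxd9 (-1.0) and Hoxa9 (-1.0), apart from Hoxa4 (-0.69). These groups were not lower throughout, since Hoxc9, of the same group as Hoxd9 and Hoxa9, was called higher. Hox genes overlap antisense and neighbouring transcripts, and whether strand was used in counting is not given in the sources used here.

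Imprinted genes, of which only the maternal or the paternal copy is active, were called at 18 of 21, 12 higher and 6 lower. Over all genes 39.6% were called, 20.3% higher and 19.4% lower. The maternally expressed Rian (3.4), Meg3 (3.03) and Mirg (1.94) of the Dlk1 domain were higher. Meg3 measured 127, 152 and 142 CPM in MycKO and 16.98, 17.1 and 14.8 in MlxKO. Dlk1, expressed from the paternal copy of the same domain, was lower (-1.4). Nnat (1.82), Igf2 (1.82) and Ndn (1.48) were higher, and Mest (-1.71), Plagl1 (-1.32) and H19 (-0.75) lower.

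Sex-linked genes also separated the lines. The Y-linked Kdm5d (-1.36), Ddx3y (-1.21), Uty (-1.2) and Eif2s3y (-1.07) were lower in MycKO, and Xist, the RNA that silences an X chromosome in female cells, was higher (0.88). Ddx3y measured 19.1, 20.8 and 19.8 CPM in MycKO and 56.8, 42.9 and 43.7 in MlxKO, and Xist 395, 526 and 483 against 266, 254 and 238. None of the 5 was called with the 12 libraries in the fit. Since each line is a pool of embryos, its share of male cells cannot be told apart from its genotype.

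Markers of other cell types were mostly too low to test. Of 12 fibroblast markers all were tested, 5 called higher and 3 lower (3 and 4 with library totals, 3 higher without MlxKO6, MlxKO7 or MycKO10), and their summed level was 18740.2 to 24484 CPM in MycKO and 18559.7 to 22847 in MlxKO. Thy1, a fibroblast surface protein, was higher (1.98). Among 3 endothelial markers tested of 8, Kdr was higher (1.42) and Egfl7 lower (-0.73). The 2 epithelial markers tested of 8, Krt18 (-1.11) and Krt19 (-0.54), were lower. Of 4 adipocyte markers tested of 8, lipoprotein lipase Lpl (2.97) and Pparg (1.17) were higher and Fabp4 (-2.18) and Cebpa (-1.24) lower. Of 6 cartilage and bone markers tested of 11, Col10a1 and Comp (-0.78) were lower and Col2a1 (0.73, adjusted p 0.0215) higher, and of 8 glial and neural crest markers only Tubb3 was tested (0.44). The call of Col2a1 was lost with the 12 libraries in the fit, with no filter on low values and without any 1 of the libraries other than MycKO9. The summed level of the cartilage and bone list was 80.9 to 108 CPM in MycKO and 186 to 220.0 in MlxKO. All 12 fibroblast markers thus passed the filter, which uses all 12 immortalized libraries and does not by itself identify the cells. The skeletal actin Acta1 in MycKO and Col10a1 in MlxKO were above 100 CPM in every library.

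The differences were not spread evenly over the chromosomes. Genes on chromosome 1 had a median of 0.13, with 31.6% called higher and 15.6% lower, and chromosomes 7 and 14 had medians of 0.12 and 0.11. At the other end, chromosomes 5 and 15 had medians of -0.13 and -0.13. On chromosome 5, 13.3% of genes were called higher and 27.4% lower. The span from the highest to the lowest autosome was 0.264, and 0.267 with library totals. In the primary table the autosome medians of the same comparison lay between -0.09 and 0.02. The files hold no measure of chromosome copies, and the part of the ploidy of the MycKO line in these medians was not tested.

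**Figure D3:**
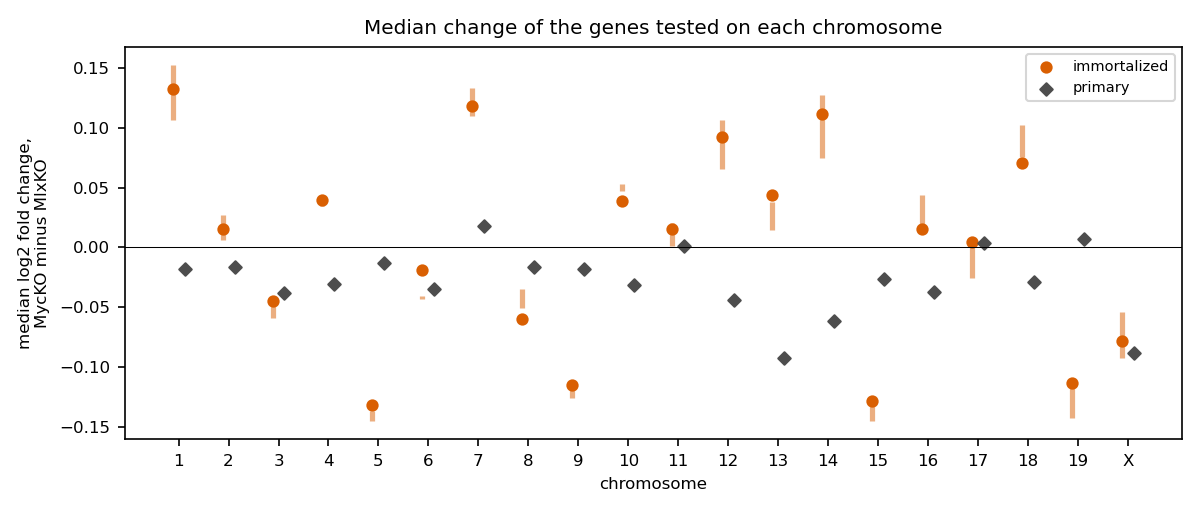
Median log2 fold change, MycKO minus MlxKO, of the tested genes on chromosomes 1 to 19 and X, in the immortalized (circles) and primary (diamonds) tables. Bars span the medians of the 3 immortalized MycKO libraries, each against the MlxKO mean, so that a bar need not reach the circle; chromosomes 1, 7 and 14 lie highest and chromosomes 5, 15, 9 and 19 lowest in the immortalized table.

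The WT and DKO means are set beside the lines compared as a description only. The sources do not name the founding pool of the immortalized WT libraries, and the WT cells were kept without the drug that activates Cre. The DKO line had a founding pool of its own. Nearness to WT or DKO therefore cannot show which knockout changed a gene, and this was not tested. Over the 5105 called genes, the WT mean lay nearer the MlxKO mean for 62.0% and nearer the MycKO mean for 38.0%, beside 55.8% and 44.2% over all 12880 genes tested. Among the 1416 called genes with a fold change of at least 1 on the log2 scale, 28% had WT nearer MycKO. Taken singly, WT2, WT3 and WT4 were nearer MycKO for 38.6%, 34.6% and 44.1% of called genes. The DKO mean lay nearer MycKO for 48.5% and nearer MlxKO for 51.5% of called genes (49.9% and 50.1% over all genes tested). Among the 1416 genes the shares were 38.7% and 61.3%.

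The same comparison in primary MEFs, not immortalized but also excised with 4OHT, is given side by side. The study used a longer 4OHT exposure for the immortalized cells. It found primary MycKO cells growth-arrested and primary MlxKO cells growing at a nearly normal rate, while the immortalized knockout lines all proliferated. Growth state and genotype therefore cannot be told apart in the primary comparison. The tables were normalized separately, so no test was made between them. Among 13101 genes tested in primary cells, 4856 were called (37.1%), 2342 higher (17.9%) and 2514 lower (19.2%), and 643 had a fold change of at least 1 on the log2 scale (4.91%). The libraries did not overlap for 6292 genes (48.0%; 22.6% higher and 25.4% lower). Library totals moved the primary split to 28% higher as well. Of 12402 genes tested in both, 4853 were called in the immortalized and 4496 in the primary table. The 2223 called in both were 45.8% of the former and 49.4% of the latter. Of these, 1772 had the same direction (79.7%), 1007 higher and 765 lower, and 451 the opposite direction.

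Genes far from 0 in the same direction in both tables included Txnip (3.08 immortalized, 4.31 primary), Arrdc4 (2.55 and 3.1), Cxcl15 (-4.26 and -2.83), the semaphorin gene Sema7a (3.52 and 2.41) and Kpna2 (6.19 and 5.99). For Kpna2 and its copy together the primary difference was -0.43. Txnip in primary cells measured 132, 146 and 140.1 CPM in MycKO and 6.88, 6.4 and 5.03 in MlxKO, without overlap. Genes called in opposite directions were led by Thbs4 (-3.31 and 1.58), Coch (3.23 and -1.53), Shtn1 (1.43 and -1.4), Slc6a17 (-1.48 and 1.38) and Spock3 (1.47 and -1.28). Coch, which encodes cochlin of the extracellular matrix, measured 144, 129 and 141 CPM in immortalized MycKO and 15.97, 14.4 and 11.3 in MlxKO, but 20.8, 27.2 and 22.5 and 66.5, 75.9 and 65.8 in the primary cells.

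By list, contractile genes were called higher at 13 of 14 in the primary table (median 0.94), and interferon-stimulated genes lower at 30 of 34 with 1 higher (-1.17). Over all genes tested in primary cells, 17.9% were called higher and 19.2% lower. The primary libraries held macrophage transcripts that were lower in MycKO, with all 14 markers called lower (median -2.22), and the part of these cells in the primary interferon values was not tested. Ribosome biogenesis was lower at 28 of 37 and higher at 1. Several lists with few calls in the immortalized table had more genes called lower in the primary table: replication genes at 34 of 41, sterol enzymes at 20 of 22 (median -0.96) and mitosis genes at 14 of 31. Cytosolic ribosomal proteins were lower at 50 of 82 in the primary table, between the 6 in the immortalized table and the 72 there without MycKO9. Complement differed in sign, with 8 of 12 called higher in primary cells (median 0.55) and 8 of 12 called lower in immortalized cells (median -1.02). Matrix proteases were called higher at 21 of 29 and lower at none in the primary table.

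**Figure D4:**
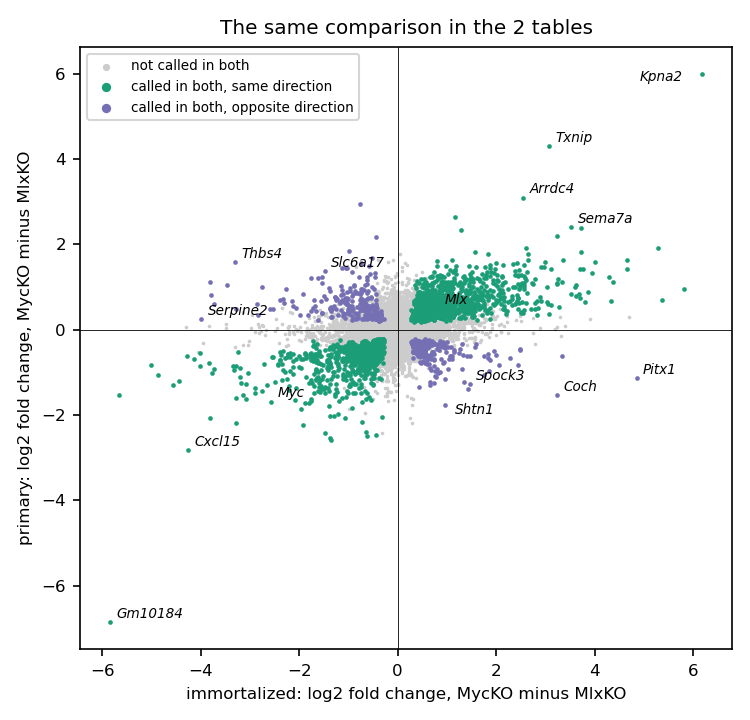
Log2 fold change, MycKO minus MlxKO, of each gene tested in both tables, immortalized on the horizontal and primary on the vertical axis. Green genes were called in both with the same direction (1772), purple genes in both with opposite directions (451), and grey genes were not called in both.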

How the data were processed

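Poly-A RNA of 24 MEF libraries (3 each of WT, MycKO, MlxKO and DKO, immortalized and primary) was sequenced after a strand-marking library kit, and the authors mapped and counted reads per gene in CLC Genomics Workbench against GRCm39 (mm39, per the submitters' processing notes). Counting settings are not given in the sources used here. The authors deposited 1 table per state, with a signal headed CPM for 41710 genes; columns summed to 915691 to 1077213 in the immortalized table, so a further scaling had been applied. Every value was a whole multiple of 1 read within 0.01 reads, so reads were recovered. No columns were left without a sample (0).

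Genes that reached 1 CPM in 3 or more of the 12 libraries were fitted with limma 3.58.1 (R 4.3.3, trended prior) on log2(CPM + 1) of the 6 libraries compared, Benjamini-Hochberg adjusted over all genes tested, 2-sided, called at an adjusted p under 0.05. This scale understates changes of low genes. The pseudocount is 1. edgeR 4.0.16 (quasi-likelihood, TMM) and DESeq2 1.42.0 on recovered reads called 5052 and 5091 genes. The scripts were tested on simulated data. Intervals and floors cover counting error only.

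Named genes were Myc and Mlx; the 10 highest and 10 lowest named symbols that were called without overlap; the 5 largest differences in CPM each way; up to 4 called members with the largest fold change per list, with all of the Myc and Mlx networks and the sex-linked genes; and the 5 furthest genes in the same and in opposite directions in both tables. Other list members are given as examples, and a few genes that the rule names are not reported here. The comparison, the 40 lists and the motifs were chosen with earlier results of these data known. In those lists, 933 members were tested and 425 called, 194 higher and 231 lower. Gene places and shared 50-base stretches came from GENCODE vM39 on GRCm39 (41181 genes matched, 529 not), and promoter windows from RefSeq on GRCm38.p6.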

Additional observations from a re-analysis of the deposited data

Results flagged for a closer look

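Of 180 tested genes named by rule, 23 had MycKO and MlxKO libraries that did not overlap in either table but with opposite directions in immortalized and primary cells, and 22 of them are given here. The count is no result, since 5 of the 23 (Thbs4, Coch, Shtn1, Slc6a17 and Spock3) were chosen for opposite directions and most others as the furthest called members of their lists. Over all 12402 genes tested in both tables, 905 (7.3%) met the same condition. The tables were normalized separately, and the difference between them was not tested.

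Higher in MycKO among immortalized cells and lower among primary cells were Pitx1 (4.85 immortalized, -1.14 primary), the sterol gene Msmo1 (0.65, -1.22), the origin recognition genes Orc4 (0.72, -0.32) and Orc2 (0.62, -0.4), the checkpoint kinase Bub1 (0.44, -0.54), the mitochondrial ribosomal protein Mrps14 (0.57, -0.19), the cartilage collagen Col2a1 (0.73, -0.71), Coch (3.23, -1.53), Shtn1 (1.43, -1.4) and Spock3 (1.47, -1.28).

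Lower among immortalized and higher among primary cells were the complement genes C4b (-3.79, 0.81) and C1s1 (-2.13, 0.56), the matrix genes Thbs4 (-3.31, 1.58) and Col4a6 (-2.53, 0.48), the inhibitor Serpine2 (-3.99, 0.26), the chemokine Cx3cl1 (-1.69, 0.71), Hoxc12 (-2.35, 0.5), the cell cycle inhibitor Cdkn1c (-0.67, 1.04), the spermine oxidase Smox (-0.99, 0.38), Egfl7 (-0.73, 0.27), the Y-linked Ddx3y (-1.21, 0.35) and Slc6a17 (-1.48, 1.38).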

How the results depend on the processing

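Leaving out each library in turn gave 3613 (without MlxKO7) to 6016 (without MycKO9) called genes in the immortalized table, 1830 to 3127 higher and 1783 to 2889 lower, and 3616 to 6510 in the primary table, 1796 to 3146 higher and 1820 to 3364 lower. Of the 180 named genes tested, 175 were called and 163 to 174 were called with 1 library left out. Without a WT library the share of called genes with WT nearer MycKO was 36.3% to 40.7%, and without a DKO library that of DKO was 48% to 50.4%; these and the interferon element and CArG searches were added after seeing the data. Library totals gave 3909 lower genes in the immortalized and 4067 in the primary table, and a fold change of at least 1 on the log2 scale left 1416. Called counts were 3983 with 12 libraries in the fit, 4484 with no filter and 4036 with a mean of at least 5 CPM.

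Over 15 alternatives, 2677 values of named genes could be computed: 2562 kept their direction and side of the threshold, 108 fell short of it, 3 newly passed it and 4 changed sign. The 4 were Mxd3 (-0.02 without MycKO9; -0.02 to 0.274 over the libraries left out) and Klf10 (-0.007 without MlxKO6 and -0.009 without MycKO11; -0.009 to 0.099 over the libraries left out; -0.12 with library totals), neither called; the cause was not tested. Fits with 12 libraries lost 24 calls and the unfiltered fit 21. No paired analysis was possible because the column names carry library numbers that the labels do not tie to replicate numbers. A difference in genes near 3 reads, as for Mycn and Arrdc4 in MlxKO, is limited by depth.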

Other observations

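Hmga1, a chromatin architectural protein chosen after its values were seen, measured 1119.6, 1173 and 1100.3 CPM in MycKO and 345, 501 and 449.7 in MlxKO (1.4), with 119, 121 and 276 in WT and 233, 244 and 292 in DKO. All 3 MycKO libraries lay above the other 9 immortalized libraries. Of its 50-base stretches, 25% also occur in Hmga1b, so its value is uncertain to that extent. In the primary table the difference was 0.15 and was not called.

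Over the 5105 called genes, the DKO mean lay between the MycKO and MlxKO means for 52.4%, below both for 23.1% and above both for 24.6%. The WT mean lay between them for 44.5%, below both for 29.1% and above both for 26.4%.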
